A study of Mus musculus with 4 samples.

Results

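The transcripts of 9 enzymes of serine synthesis and the folate cycle were followed in mouse neural stem cells, namely Phgdh, Psat1, Psph, Shmt1, Shmt2, Mthfd1, Mthfd2, Mthfd1l and Aldh1l2. They were chosen by gene symbol, with earlier results of these data known. Each symbol matched 1 of the 55487 gene IDs in the expression table. The table held 4 libraries, 1 for each group, from primary neural stem cells of E12.5 embryonic neocortex kept in culture with bFGF and EGF. The control was labelled wild type, and the study describes it as a Tut1f/f culture given lipid nanoparticles (LNP) without cargo. Cre mRNA, whose product removes DNA between loxP sites, was delivered by LNP to the remaining cultures, which were Tut1f/f (called Tut1 KO), p53f/f (Trp53 KO) and Tut1f/f;p53f/f (double KO). By this description all 4 cultures carried floxed alleles and were exposed to LNP, with 3 days of treatment. The control was the only one without Cre. Tut1 encodes the terminal uridylyltransferase of U6 snRNA, and Trp53 encodes p53.

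Proliferating cells make serine from the glycolytic intermediate 3-phosphoglycerate through Phgdh, Psat1 and Psph in turn. Shmt1 in the cytosol and Shmt2 in mitochondria then pass a carbon of serine to tetrahydrofolate and release glycine. The mitochondrial enzymes Mthfd2, Mthfd1l and Aldh1l2 and the cytosolic enzyme Mthfd1 interconvert the folate-bound carbon, which is used to build purines and thymidylate, to form formate and to reduce NADP. In many cell types the genes of serine synthesis and of the mitochondrial enzymes are activated by Atf4, the transcription factor of the amino acid response.

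Expression was given as TPM (the share of a gene among all transcripts, after division by transcript length). Levels of different genes, and the orders and ratios built on them, hold as far as this division fits the reads, which is unknown. Because each group had 1 library, the spread between cultures of a group is unknown. No test was run, since the exact two-sided permutation test of the 2 libraries of each Trp53 label cannot go below p = 0.333. The depth of the libraries is unknown. The targeted genes and the cell identity were checked first. Trp53 was at 119.9 (control) and 100.4 TPM (Tut1 KO) where it was intact by label, and at 39.7 (Trp53 KO) and 41.9 TPM (double KO) where it was deleted. Tut1 was at 12.2 (control), 29.8 (Tut1 KO), 12.5 (Trp53 KO) and 13.7 TPM (double KO). The floxed allele loses exon 2 of Tut1, and TPM of the whole gene does not read that exon alone, so these values do not check the deletion. The level was highest in the library labelled Tut1 KO, and its direction rests on the label in every comparison below. All 10 neural stem cell markers examined reached 10 TPM in at least 1 library. The 5 microglial, 4 endothelial and 4 fibroblast markers stayed below 1 TPM in every library. Markers of the neural lineages were present in part, with 3 of 7 neuron, 2 of 6 astrocyte and 3 of 6 oligodendrocyte lineage markers reaching 10 TPM, among them Map2, Aldoc and Olig2 (530 to 619 TPM). The astrocyte markers Gfap and Aqp4 stayed below 1 TPM. Xist reached 188 (Tut1 KO) and 204 TPM (Trp53 KO) and lay near 0 elsewhere, whereas Ddx3y from the Y chromosome was listed at 0 in those libraries and reached 24.4 (control) and 25.7 TPM (double KO). Each Trp53 label and each Tut1 label was therefore represented by 1 Xist-positive and 1 Y-positive culture. Each matched comparison of a label below sets an Xist-positive against a Y-positive culture, in opposite directions in the pairs of a label, and of the comparisons made only double KO minus control does not.

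All 9 enzymes were expressed, over a wide span of levels. Phgdh, the first enzyme of serine synthesis, was the most abundant with 344 (control), 350 (Tut1 KO), 402 (Trp53 KO) and 381 TPM (double KO). It ranked 398th among all genes in the control and 334th in the Trp53 KO library. Psat1, the aminotransferase of the second step, followed with 295, 226, 327 and 327 TPM in the same order of libraries. Psph, the phosphatase that releases serine, had 87.6, 76.1, 93.8 and 105 TPM. In each library the 3 enzymes of serine synthesis thus kept the order of the pathway, with Phgdh between 3.62 and 4.60 times the level of Psph. Their sum was 726 (control) and 652 TPM (Tut1 KO) with Trp53 and 823 (Trp53 KO) and 813 TPM (double KO) without it, so both libraries without Trp53 lay above both with it.

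Among the folate enzymes, mitochondrial Shmt2 was the highest, with 151 (control), 139 (Tut1 KO), 181 (Trp53 KO) and 179 TPM (double KO). Cytosolic Shmt1 had 53.5, 45.6, 59.4 and 54.1 TPM in this order. The ratio of Shmt2 to Shmt1 stayed between 2.82 and 3.32, and the mitochondrial form was the more abundant in all 4 libraries. Mthfd1, the cytosolic enzyme with 3 catalytic activities, had 96.2 (control), 72.1 (Tut1 KO), 61.0 (Trp53 KO) and 76.1 TPM (double KO), so the control was its highest and the Trp53 KO its lowest library. Mthfd2, the mitochondrial dehydrogenase and cyclohydrolase, had 65.8, 47.3, 74.1 and 72.7 TPM. Mthfd1l, which releases formate in mitochondria, had 44.5, 28.7, 56.4 and 42.2 TPM. Aldh1l2, the mitochondrial enzyme that oxidizes formyl-tetrahydrofolate, was the least abundant member with 14.9, 9.38, 21.2 and 15.4 TPM. The plot of TPM by library shows these levels on 1 axis.

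**Figure D1:**
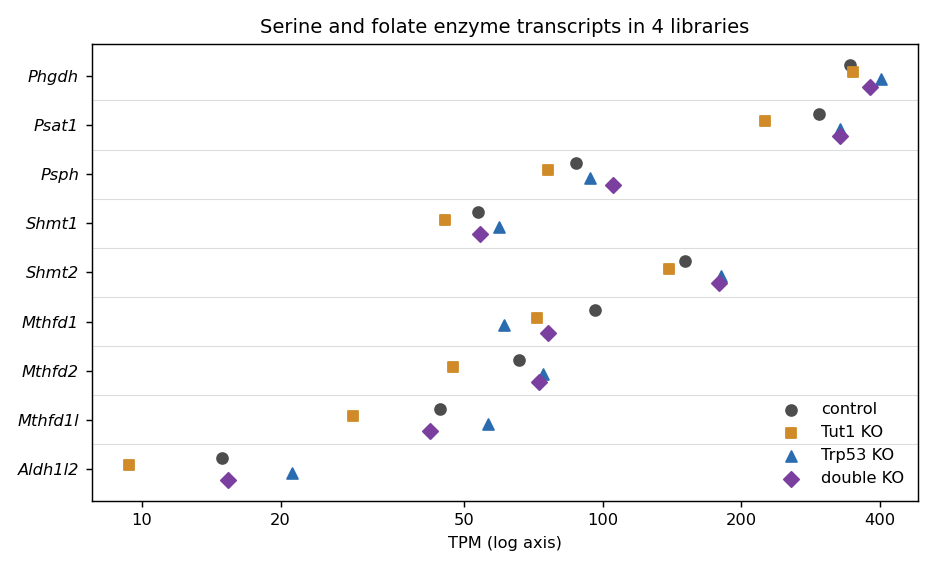
TPM of the 9 enzymes (log axis) by library, with 1 point for each library. Phgdh lay between 344 and 402 TPM, and Aldh1l2 between 9.38 and 21.2 TPM.

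The order of levels was largely the same in the 4 libraries. Phgdh, Psat1 and Shmt2 were the top members and Mthfd1l and Aldh1l2 the lowest in each. Mthfd1 lay above Psph in the control and below it in the other libraries, and it was below Mthfd2 in the Trp53 KO library alone. Shmt1 and Mthfd2 lay close together in the Tut1 KO library, and whether such neighbors differ beyond the spread of cultures cannot be said from single libraries. The highest and lowest libraries differed by 1.17-fold for Phgdh, 1.30-fold for Shmt2 and Shmt1, 1.38-fold for Psph, 1.45-fold for Psat1, 1.57-fold for Mthfd2, 1.58-fold for Mthfd1, 1.96-fold for Mthfd1l and 2.26-fold for Aldh1l2. The abundant enzymes of serine synthesis thus varied less than the low mitochondrial enzymes Mthfd1l and Aldh1l2. Aldh1l2 fell to 9.38 TPM in the Tut1 KO library, and with unknown depth the counting error at low levels cannot be given. The Trp53 KO library was the highest of the 4 for 7 of 9 members, compared with 19.6% of the 9314 genes with at least 10 TPM in some library. The Tut1 KO library was the lowest for 7 of 9, compared with 41.1% of those genes.

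The genes lie on 7 chromosomes of GRCm38. Phgdh (ENSMUSG00000053398) lies on chromosome 3 at 98313170 to 98339990 on the minus strand, Psat1 (ENSMUSG00000024640) on chromosome 19 at 15904678 to 15947337 on the minus strand and Psph (ENSMUSG00000029446) on chromosome 5 at 129765558 to 129787449 on the minus strand. Shmt1 (ENSMUSG00000020534) lies on chromosome 11 at 60788104 to 60811718 on the minus strand, Mthfd1 (ENSMUSG00000021048) on chromosome 12 at 76255298 to 76319803 on the plus strand and Mthfd2 (ENSMUSG00000005667) on chromosome 6 at 83305691 to 83325908 on the minus strand. Chromosome 10 holds Shmt2 (ENSMUSG00000025403, 127517123 to 127522444, minus strand), Mthfd1l (ENSMUSG00000040675, 3973118 to 4167081, plus strand) and Aldh1l2 (ENSMUSG00000020256, 83487450 to 83534140, minus strand). No exon of a member overlapped an exon of another gene on the same strand. On the opposite strand, exons of Psph, Shmt1, Shmt2, Mthfd1 and Aldh1l2 overlapped those of another gene, and whether the counting used strand was not given in the sources used here. Phgdh also has processed copies, and 19 IDs described as its pseudogenes were in the table. They summed to 11.3 (control), 18.4 (Tut1 KO), 9.05 (Trp53 KO) and 27.6 TPM (double KO), and reads may have been divided between them and Phgdh. With these copies included, Phgdh had 355, 368, 411 and 409 TPM, and both libraries without Trp53 still lay above both with it.

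Promoter windows from RefSeq (GRCm38.p6, 250 bases before to 50 bases after the annotated start) were found for 8 of the 9 members, all but Aldh1l2. Of Psat1, Psph and Mthfd2, a stretch of each promoter is shown for the repeats of the CCAAT box in it. These genes were higher in both libraries without Trp53, as given below. So were Shmt2, without a CCAAT match, and Phgdh, with 2 matches, which are not shown. The stretches run from 110 bases before to 30 bases after the start, 5′ to 3′ along the gene, and lie on the minus strand at chr19:15925030-15925169, chr5:129787224-129787363 and chr6:83317575-83317714. Capitals mark CCAAT or its reverse complement ATTGG.
Psat1: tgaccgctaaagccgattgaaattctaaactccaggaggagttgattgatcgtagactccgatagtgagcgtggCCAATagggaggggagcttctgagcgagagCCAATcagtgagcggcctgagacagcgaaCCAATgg
Psph: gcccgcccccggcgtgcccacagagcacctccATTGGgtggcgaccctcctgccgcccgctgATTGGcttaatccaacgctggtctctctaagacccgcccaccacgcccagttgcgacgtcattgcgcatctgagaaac
Mthfd2: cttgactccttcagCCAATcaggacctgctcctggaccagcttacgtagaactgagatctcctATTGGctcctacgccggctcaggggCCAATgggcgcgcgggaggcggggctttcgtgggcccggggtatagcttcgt

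CCAAT was searched on both strands and was picked after these sequences had been read. The Psat1 window held 3 matches, beginning 36 and 6 bases before the start and at base 24 after it. Mthfd2 also held 3, beginning 96, 47 and 22 bases before the start, and Psph held 2, at 78 and 48 bases before it. Phgdh had 2 matches, Shmt1 and Mthfd1 had 1 each, and no match was in the windows of Shmt2 and Mthfd1l or in a second Psat1 window. Among all 32851 windows, 37.4% held at least 1 match, 11.7% at least 2 and 3.37% at least 3. Of the other words searched on both strands, TGACNNNGC, the core of the antioxidant response element, was in the windows of Phgdh and Psph, compared with 12.4% of all windows. TGATGNAA, the composite word of C/EBP and Atf proteins, was in no window of a member and in 3.97% of all. The E-box CACGTG was in none and in 7.15% of all, and the cAMP response element TGACGTCA in none and in 1.79% of all. No CCAAT match overlapped a match of another word. These are matches of letters in short windows and say nothing of binding.

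The Trp53 label was compared in 2 pairs of libraries that do not overlap, Trp53 KO against control and double KO against Tut1 KO, to ask how the enzymes differed where Trp53 had been deleted by label. In the former pair the treatment (Cre-LNP against empty LNP) differed as well. Differences are of log2(TPM + 1), and adding 1 makes changes of weakly expressed genes look smaller. In Trp53 KO minus control 8 of 9 members were higher, compared with 40.1% of the 9055 genes that had at least 10 TPM in 1 of the libraries compared. In double KO minus Tut1 KO all 9 were higher, compared with 60.3% of 8950 genes. The median difference of the members was 0.17 in the former, where all genes had -0.05, and 0.46 in the latter, where all genes had 0.09. No member differed by 2-fold in either comparison, as 3.83% and 3.90% of all genes did. In bulk RNA, fewer cells of a kind and less transcript in each cell cannot be told apart.

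For 7 of the 9 members, both libraries without Trp53 lay above both libraries with it, compared with 14.2% of 9314 genes. As the members were chosen with earlier results of these data known, their counts beside all genes are a description only. No member was lower in both, as 13.4% of these genes were. The gap between the lower library without Trp53 and the higher library with it was 0.25 for Shmt2, 0.15 for Psat1, 0.14 for Mthfd2, 0.12 for Phgdh, 0.10 for Psph, 0.04 for Aldh1l2 and 0.01 for Shmt1. The separation of Shmt1 and Aldh1l2 was thus slight, and that of Phgdh, set by double KO minus Tut1 KO, fell to 0.03 when the median of all genes was set to 0. Quantile normalization brought the gap of Psat1 to 0.08, ended the separation of Shmt1 and left 6 members. Mthfd1l fell outside this count because its double KO level (42.2 TPM) lay just under the control (44.5 TPM). Mthfd1 was the other exception, with 61.0 and 76.1 TPM without Trp53 against 96.2 and 72.1 TPM with it.

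The size of the difference varied among the enzymes and between the pairs. Of the serine synthesis enzymes, Phgdh differed by 0.22 in the former pair and 0.12 in the latter. Psat1 differed by 0.15 and 0.53, and Psph by 0.10 and 0.46, so both stood further apart in the latter pair. Mthfd2 differed by 0.17 and 0.61, which made it 1.13 and 1.54 times as high. Mthfd1l differed by 0.34 and 0.54, and Aldh1l2 by 0.48 and 0.66. Mthfd1l and Aldh1l2 had the largest positive differences of the members in Trp53 KO minus control, and Aldh1l2 was 1.42 and 1.64 times as high. Shmt2 differed by 0.26 and 0.36, and Shmt1 by 0.15 and 0.24. Mthfd1 differed by -0.65 and 0.08, and the sign of the latter changed when the median of all genes was set to 0 (-0.01) and under quantile normalization (-0.01). At a 1.5-fold difference, Mthfd1 was the 1 member lower in Trp53 KO minus control, where 8.42% of genes differed by as much in either direction. Mthfd2 and Aldh1l2 were the 2 members higher in double KO minus Tut1 KO, where 10.7% of genes did. Neither reached 1.5-fold with a pseudocount of 5, after median centering or quantile normalization, or once GC content and length were corrected for. The shares of members past 1.5-fold (1 of 9 and 2 of 9) were thus not far from those of all genes.

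**Figure D2:**
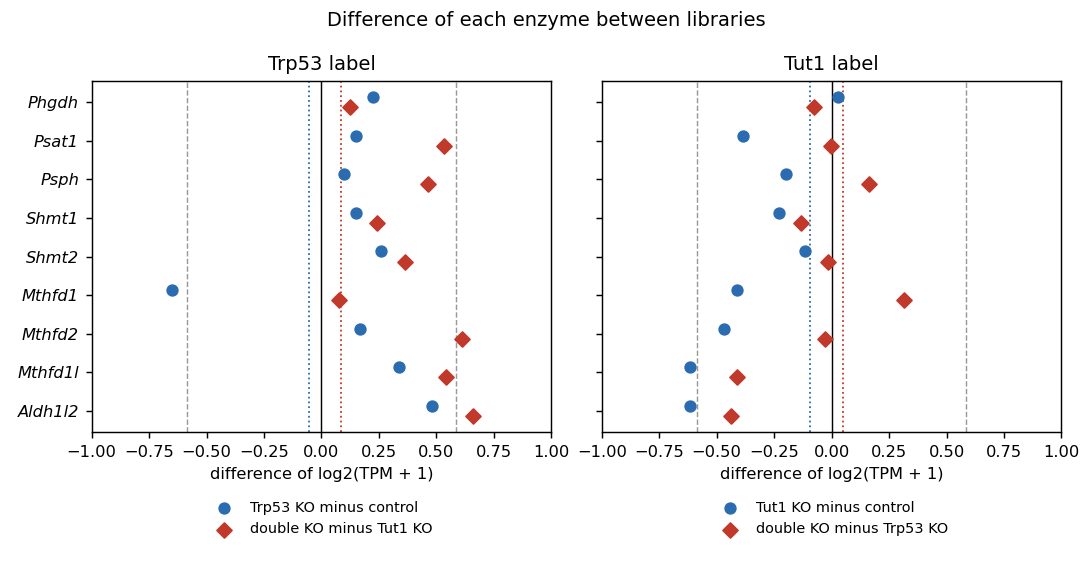
Difference of log2(TPM + 1) of each enzyme by the Trp53 label (left) and the Tut1 label (right), in the 2 library pairs of each. Dotted lines mark the median of all genes in the comparison of the same color and dashed lines a 1.5-fold difference, and all 9 points of double KO minus Tut1 KO lie above 0.

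The Tut1 label was compared first against the control (Tut1 KO) and then against Trp53 KO (double KO). In the first pair the treatment (Cre-LNP against empty LNP) differed as well, so the label and Cre exposure cannot be told apart. These comparisons use the same 4 libraries as those of the Trp53 label in another pairing and are not independent of them. In the library labelled Tut1 KO 8 of 9 members were lower than in the control, all but Phgdh. A higher level in this comparison was found for 39.3% of 9032 genes. The median of the members was -0.39, and that of all genes -0.09. Aldh1l2 and Mthfd1l had the largest differences (-0.62 and -0.61), followed by Mthfd2 (-0.47), Mthfd1 (-0.41) and Psat1 (-0.39). Shmt1 (-0.23), Psph (-0.20) and Shmt2 (-0.12) differed less, and Phgdh had 0.03. Aldh1l2 and Mthfd1l were the 2 members past 1.5-fold, which 12.1% of genes reached, and no member reached 2-fold, which 4.10% did. Under the same 4 alternatives neither reached 1.5-fold.

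Without Trp53, the members differed by the Tut1 label in both directions. In double KO minus Trp53 KO the median was -0.03, with 0.05 for all genes, and 2 of 9 members were higher, compared with 58.7% of 8976 genes. Psat1 (0.00), Shmt2 (-0.02) and Mthfd2 (-0.03) had nearly the same level in both libraries. Mthfd1l (-0.41) and Aldh1l2 (-0.44) were lower in the double KO library, as they were in Tut1 KO minus control, and were 0.75 and 0.73 times as high. Mthfd1 (0.31) and Psph (0.16) were higher. No member reached 1.5-fold or 2-fold here, which 7.89% and 3.21% of genes reached. Double KO minus control shares its libraries with the comparisons above, and the treatment differed there as well. In it 7 of 9 members were higher, compared with 49.8% of 9022 genes. The median was 0.14, the extremes were Psph (0.26) and Mthfd1 (-0.33), and no member reached 2-fold, which 3.31% of genes did. Under quantile normalization the median was 0.083, and Shmt1 went from 0.01 to just below 0, which left 6 members higher.

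Other properties moved with the Tut1 KO library. Over 8469 protein-coding genes, its deviation from the median of the other libraries was -0.32 in the tenth of genes with the lowest GC content and 0.12 in the tenth with the highest. The control (0.12 and -0.01) and the double KO library (0.15 and -0.05) had the opposite trend, so both comparisons with the Tut1 KO library hold a difference in GC trend. Phgdh and Shmt2, whose longest transcripts have the highest GC content of the members (57.2% and 57.4%), had the smallest differences in Tut1 KO minus control. Aldh1l2 has the lowest (47.7%) and also the longest transcript (6027 nucleotides). After each library was corrected for GC content and transcript length, the difference was -0.41 for Aldh1l2, -0.55 for Mthfd1l, -0.44 for Mthfd2, -0.31 for Psat1, -0.17 for Shmt2 and -0.05 for Phgdh, with a median over the members of -0.31. All 9 were lower after the correction. In double KO minus Tut1 KO the correction raised Phgdh to 0.22 and lowered Aldh1l2 to 0.47. The 12 genes of S phase and mitosis examined also had a low level in the Tut1 KO library, with 11 lower than in the control and a median of -0.39, close to that of the members. In Trp53 KO minus control their median was -0.05, with 5 higher and 7 lower. All 12 were higher in double KO minus Tut1 KO, with a median of 0.34. Of all genes 39.3%, 40.1% and 60.3% were higher in these 3 comparisons in turn. Of the neuron markers, the 3 with at least 10 TPM in some library were lower in Tut1 KO minus control (median -0.56, with Snap25 at -1.28). They were higher in double KO minus Tut1 KO (median 0.43). Snap25 had only 9.65 (control) and 3.38 TPM (Tut1 KO). Of the weaker markers, Rbfox3 moved the same way (-0.24 and 0.16). Dcx (0.13) and Syt1 (0.00) were not lower in Tut1 KO minus control. Dcx (-0.04), Syt1 (-0.38) and Neurod1 (-0.16) were lower in double KO minus Tut1 KO. All 7 neuron markers summed to 241 (control), 167 (Tut1 KO), 212 (Trp53 KO) and 219 TPM (double KO). Map2 made up most of this sum, with 208 (control) and 141 TPM (Tut1 KO), and Rbfox3 and Dcx stayed at or below 5.18 TPM. The 6 oligodendrocyte lineage markers summed to 730.3, 637, 664 and 687 TPM and the 6 astrocyte markers to 222, 223, 229 and 239 TPM. The part of any of these in the levels of the enzymes was not tested.

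The balance of mitochondrial and cytosolic enzymes was read within each library. Shmt2, Mthfd2, Mthfd1l and Aldh1l2 together had 276 (control), 225 (Tut1 KO), 333 (Trp53 KO) and 309 TPM (double KO). Cytosolic Shmt1 and Mthfd1 together had 149.8, 118, 120.5 and 130.2 TPM in this order. The ratio of mitochondrial to cytosolic members was thus 1.84 (control) and 1.91 (Tut1 KO) with Trp53 and 2.76 (Trp53 KO) and 2.38 (double KO) without it. Both libraries without Trp53 had the higher ratio. Mthfd1, the larger part of the cytosolic sum, had 96.2, 72.1, 61.0 and 76.1 TPM in this order, and the ratio without it was not computed. The ratio of Mthfd1l to Mthfd1, paralogs that are already in the ratio above, was not among those planned. It separated the Trp53 labels, at 0.46 and 0.40 with Trp53 and 0.92 and 0.55 without it. Shmt2 to Shmt1 did not separate the labels, since the Tut1 KO (3.05) and the Trp53 KO library (3.05) had nearly the same ratio. The ratio of Aldh1l2 to its cytosolic paralog Aldh1l1 was 0.19 in the control, 0.23 in Trp53 KO, 0.12 in Tut1 KO and 0.18 in double KO, which did not separate them either. Mthfd2l, a second mitochondrial enzyme of the Mthfd2 kind, had 28.9, 24.0, 24.0 and 50.3 TPM. Its level in the double KO library was higher by 1.04 than in either the Tut1 KO or the Trp53 KO library, so the ratio of Mthfd2 to Mthfd2l was lowest there (1.45) and highest in the Trp53 KO library (3.09).

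**Figure D3:**
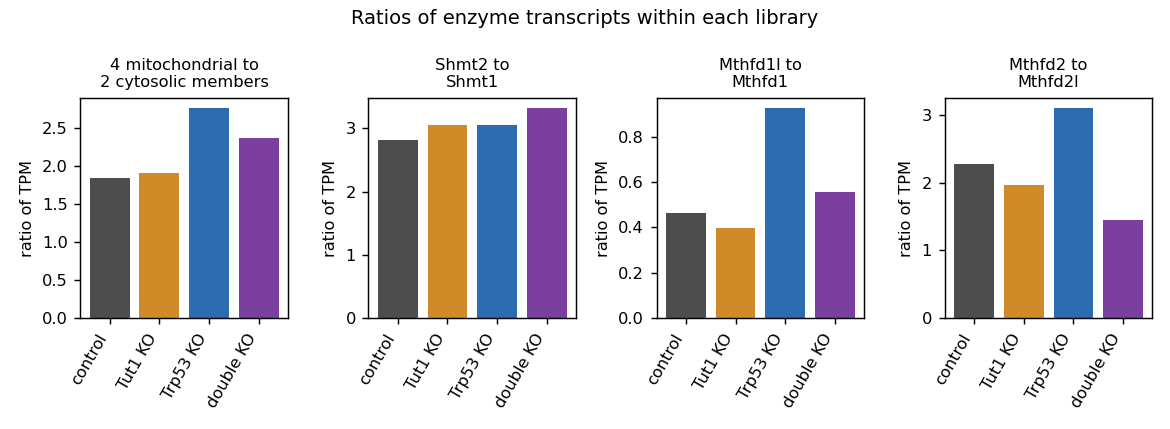
Ratio of TPM within each library for the 4 mitochondrial against the 2 cytosolic members, Shmt2 to Shmt1, Mthfd1l to Mthfd1 and Mthfd2 to Mthfd2l. The first ratio is 1.84 and 1.91 in the libraries with Trp53 and 2.76 and 2.38 in those without.

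The other genes of the pathway were read from lists. Of 17 other folate enzymes 13 had at least 10 TPM in some library. In Trp53 KO minus control 5 of them were higher and 8 lower with a median of -0.02. Of all genes 40.1% were higher there, with a median of -0.05. In the other pair, double KO minus Tut1 KO, 10 of the 13 had a positive difference and the median was 0.12. In that pair 60.3% of all genes were higher, with a median of 0.09, so this list lay near all genes. Beside Mthfd2l, Mthfs (0.28 and -0.35) and Mthfsl (0.05 and -0.29) were named by the rule for this list, neither past 1.5-fold. Mthfs shares exons with another gene on its strand and reached 10 TPM only in the Tut1 KO library (10.4 TPM). The medians of the members thus lay above that of the other folate enzymes in both comparisons of the Trp53 label.

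Transporters of folate and of serine and related amino acids gave 9 genes of 14. Their medians were 0.05 and 0.16, with 6 of 9 higher in Trp53 KO minus control, where 40.1% of all genes were, and 6 of 9 in the other pair, where 60.3% were. Slc1a5, a carrier of neutral amino acids, had 21.7, 15.1, 32.9 and 23.4 TPM in the order of libraries used above, ranked as for Aldh1l2. It differed by 0.58 and 0.60. Slc38a2, another neutral amino acid carrier, differed by 0.20 and 0.55, Slc38a1 by -0.08 and 0.40 and the proton-coupled folate carrier Slc46a1 by 0.39 and -0.31.

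Genes that use the products of the pathway were read in the same way, beside 40.1% and 60.3% of all genes that were higher in these comparisons. Of 12 purine synthesis genes, 5 were higher and 7 lower in Trp53 KO minus control (median -0.09), and 11 were higher in double KO minus Tut1 KO (median 0.20). Ppat, the enzyme of the committed step, differed by -0.24 and 0.55, Prps1, which supplies its substrate, by 0.08 and 0.53, Gart by 0.05 and 0.37 and Pfas by -0.34 and 0.10. In Tut1 KO minus control all 12 were lower (median -0.20), where 39.3% of all genes were higher (median -0.09). The 6 genes of the methionine cycle and transsulfuration had medians of -0.05 and 0.05. Among them Mat2a, which makes S-adenosylmethionine, had 54.7 (control), 89.2 (Tut1 KO), 32.4 (Trp53 KO) and 47.6 TPM (double KO). Its order was the reverse of that of Aldh1l2, and it differed by -0.74 and -0.89 by the Trp53 label. Cbs (-0.02 and -0.31), Mtrr (-0.27 and 0.03) and Mat2b (0.09 and 0.20) differed less. The 10 other genes that use serine had medians of -0.14 and 0.00, and Srr, which turns L-serine into D-serine, was lower in both (-0.56 and -0.38). Ptdss1, of phosphatidylserine synthesis, differed by 0.69 and 0.18, Sptlc1 by -0.38 and 0.00 and Serinc1 by -0.19 and 0.35.

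Atf4 and other genes of the amino acid response were also read by the Trp53 label. Of its 17 genes with at least 10 TPM, 16 were higher in the former comparison of the Trp53 label and 13 in the latter, with medians of 0.32 and 0.32. The shares of all genes that were higher were 40.1% and 60.3%, so the latter count lies nearer to that of all genes. For 11 of the 17 both libraries without Trp53 lay above both with it, compared with 14.2% of all genes. Nupr1, a stress-response cofactor, had 2.23, 4.55, 11.2 and 10.9 TPM and differed by 1.92 and 1.11. It reached 10 TPM only in the libraries without Trp53, so the filter fixed its direction, and the counts above include it. Pck2, the mitochondrial form of phosphoenolpyruvate carboxykinase, differed by 0.83 and 0.26, and the cationic amino acid carrier Slc7a1 by 0.21 and 0.84. Sesn2, a target of p53 as well as of Atf4, was lower in both (-0.82 and -1.19). Atf4 itself, named here after its values were seen, had 131 TPM (control and Tut1 KO), 133 TPM (Trp53 KO) and 230 TPM (double KO). In double KO minus Trp53 KO 15 of the 17 genes were lower (median -0.20), whereas 58.7% of all genes were higher (median 0.05).

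The kinases that signal to Atf4 and their partners gave 6 genes with medians of -0.20 and 0.25. Eif2ak4, the kinase that senses uncharged tRNA, differed by 0.24 and 0.62, Ppp1r15b by -0.21 and 0.55, Eif2ak1 by -0.35 and 0.01 and Eif2ak3 by -0.22 and 0.32. Eif2ak4 had 9.47 (control), 6.91 (Tut1 KO), 11.3 (Trp53 KO) and 11.2 TPM (double KO). It passed the minimum of 10 TPM only without Trp53, so the filter fixed its direction. Of the regulators examined, the p53 targets Cdkn1a and Mdm2 separated by the Trp53 label. Cdkn1a, the inhibitor of cyclin-dependent kinases, differed by -1.28 and -1.75, and Mdm2, the ligase that degrades p53, by -0.82 and -0.67. Myc and Nfe2l2, regulators of these enzymes in other cells, were also named after their values were seen. Myc had 67.0, 64.4, 67.7 and 69.9 TPM, and Nfe2l2 had 79.5 and 73.5 TPM with Trp53 and 56.1 and 58.5 TPM without it.

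**Figure D4:**
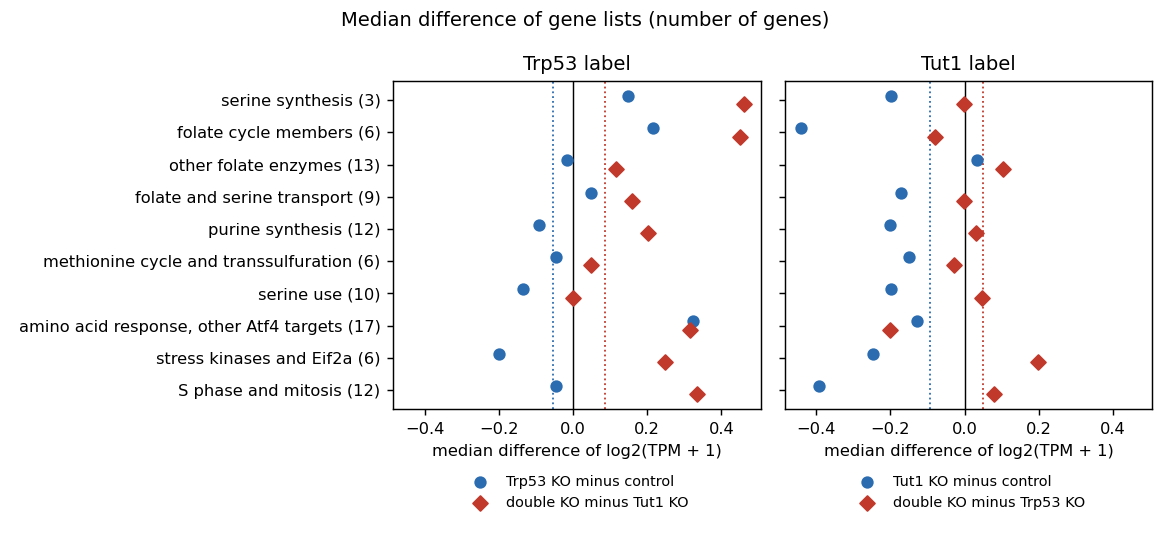
Median difference of log2(TPM + 1) for the members (top 2 entries) and other gene lists, by the Trp53 label (left) and the Tut1 label (right), with the number of genes read in parentheses and dotted lines at the median of all genes. In the left panel serine synthesis (0.15 and 0.46) and the folate cycle members (0.22 and 0.45) lie to the right of the other folate enzymes (-0.02 and 0.12).

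Aldh1l2 had the widest range over the libraries, and other genes were ordered by the distance of their profile from it, after each profile of log2(TPM + 1) over the 4 libraries was centered on its mean. Among 7722 genes outside the lists with at least 10 TPM in every library, the nearest were Vegfa (distance 0.092), Rnf146 (0.12), Acss2 (0.15), Insig1 (0.16) and Spidr (0.17). Aldh1l2 itself lay below this minimum in the Tut1 KO library (9.38 TPM). Vegfa, a growth factor of blood vessels, had 257 (control), 162 (Tut1 KO), 352 (Trp53 KO) and 243 TPM (double KO). Acss2, which makes acetyl-CoA from acetate, had 94.8, 59.1, 145 and 106 TPM. Among the members Mthfd1l was the closest to Aldh1l2 at a distance of 0.13, with 2 of the 7722 genes nearer. Mthfd2 (0.36) had 85 genes nearer, Psat1 (0.42) had 190, and Mthfd1 (1.02) was the farthest member with 6582. With 4 libraries such distances are a description of few values.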

How the data were processed

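RNA of 4 mouse neural stem cell cultures was sequenced, 1 library for each group. The deposited values were TPM, computed by the authors. Per the labels, libraries were made with a stranded Illumina mRNA kit, and the submitters' processing notes name Trimmomatic, HISAT2, StringTie and mm10. The study describes Nanopore long reads of these cultures, and which reads gave the TPM values was not settled. Whether division by transcript length fits the reads is therefore unknown, and levels of different genes are less certain than differences of 1 gene between libraries. The methods name an Ensembl transcriptome for long reads, and which annotation, versions and filters gave this table was likewise not settled. Because TPM keeps no depth, no counting error could be computed.

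Differences were taken on log2(TPM + 1) for genes with at least 10 TPM in 1 of the libraries compared, or in any of the 4 libraries for lists, shares by library order and the Trp53 separation. No test was run, as no group had a second library. Up to 4 genes were named from each list, those with the largest differences by the Trp53 label. A gene of the folate list that this rule also names is not reported here. The named neighbors of Aldh1l2 were the 5 nearest, without predicted genes, Riken clones or pseudogenes. The members and lists were chosen with earlier results of these data known. Coordinates, exon overlap, GC content and transcript length came from GENCODE M21 (GRCm38). Alternatives were pseudocounts of 0.1 and 5, other TPM minimums, a 1.5-fold threshold, median centering, quantile normalization, leaving out 125 genes (mitochondrial genome and ribosomal proteins), and a quadratic GC and length correction. Python 3.11.15, numpy 2.4.6, pandas 2.3.3 and matplotlib 3.10.9 were used, and the code was tested on simulated libraries.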

Additional observations from a re-analysis of the deposited data

Results flagged for a closer look

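For 3 members the library pairs of 1 label moved in opposite directions, and with 1 library for each group the difference between the pairs was not tested. Mthfd1 was lower in Trp53 KO minus control (-0.65) and slightly higher in double KO minus Tut1 KO (0.08), and lower in Tut1 KO minus control (-0.41) but higher in double KO minus Trp53 KO (0.31). Either way the pairs differed by -0.73, since both contrasts are built from the same 4 libraries. For Psph, Tut1 KO minus control (-0.20) and double KO minus Trp53 KO (0.16) differed by -0.36. For Phgdh the same comparisons (0.03 and -0.08) differed by 0.10. After the GC content and length correction Phgdh was lower in both.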

How the results depend on the processing

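No paired analysis was possible because the labels give no replicate number that groups share, with 1 library for each group. The 5 medians of the members kept their sign and moved by less than the median absolute deviation of all genes under the alternative pseudocounts, median centering, quantile normalization, removal of abundant gene classes and the GC and length correction. The 1.5-fold threshold gave 1 member in Trp53 KO minus control, 2 in double KO minus Tut1 KO and 2 in Tut1 KO minus control, where the 2-fold threshold gave none. Both counts of 2 were 0 with a pseudocount of 5, median centering, quantile normalization or the GC and length correction, and Mthfd1 in Trp53 KO minus control passed in all of them. Of 270 single differences 5 changed sign, all of them under 0.08 in size. The number of members above in both libraries without Trp53 was 7, or 6 after quantile normalization. Leaving out 1 library, added after seeing the data, gave 7 to 8. The share of all genes was then 27.0% without the Tut1 KO or the double KO library, 34.5% without the Trp53 KO and 45.9% without the control. A TPM minimum of 1 or none raised the 2-fold counts over all genes from 347 to 644 in Trp53 KO minus control, 349 to 678 in double KO minus Tut1 KO, 370 to 693 in Tut1 KO minus control, 288 to 564 in double KO minus Trp53 KO and 299 to 619 in double KO minus control. Adding 1 TPM to both enzymes moved the ratio of Aldh1l2 to Aldh1l1 in the Tut1 KO library to 0.13. Depth was unknown, so its limits could not be given.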
